A study of Homo sapiens with 24 samples.

Results

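In cells without METTL3, the transcript regions recovered with an antibody against N6-methyladenosine (m6A) were compared between cells left without UV and cells exposed to UV. The members are the peaks of 2 deposited lists, KO minus UV with 13852 peaks and KO plus UV with 9471, together 23323 of the 52777 peaks of the series. A peak was called kept when at least 1 of its bases lay in a peak of the other condition on that transcript. It was called lost when it stood in KO minus UV without such a partner, and gained when it stood in KO plus UV without one. A gene was lost, gained or kept by whether its transcript carried a peak in KO minus UV alone, in KO plus UV alone, or in both. These words describe membership of lists and not a tested change.

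All samples came from U2OS, a human osteosarcoma cell line, with METTL3 knocked out (KO). Not given in the sources used here are how the knockout was made and whether it is 1 clone. Every culture, with or without UV, had been labelled with 10 µM BrdU, a thymidine analogue. The plus UV group then received 50 J of UVC, the unit as the labels give it, and was collected 2 min later, and the minus UV group received none. Polyadenylated RNA was precipitated with an m6A antibody and sequenced as 50-base single-end reads, next to an input library. These groups hold 10 of the 24 samples of the series: 3 immunoprecipitated (IP) libraries with 3 inputs without UV, and 2 IP libraries, replicates 1 and 3, with 2 inputs with UV. Each condition has 1 list for all its libraries, with no score, read count or depth. No difference could therefore be set against the spread between replicates, no test was possible, and the depth is unknown. The intervals given are 95% Wilson intervals and cover counting error alone. The number of IP libraries moves with UV, 3 against 2, so a difference between these lists cannot be told apart from a difference in library number. A missing peak and a transcript too scarce to give a peak cannot be told apart either.

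m6A is the most abundant internal modification of messenger RNA. METTL3 is the catalytic subunit of the nuclear writer complex, in which METTL14 helps to bind the RNA and WTAP, VIRMA, CBLL1, ZC3H13 and RBM15 or RBM15B guide it to its sites, mostly at a short consensus with the core GGAC and often near stop codons and in long internal exons. YTH-domain proteins read the mark, and ALKBH5 and FTO can remove it. Antibodies against m6A also bind m6Am, a related mark that another enzyme, PCIF1, places on an adenosine next to the cap, so a signal at the first bases of a transcript can come from either mark. The comparison shows which antibody-bound regions the lists hold with and without UV when the main writer is missing.

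Because PCIF1 writes only where the transcript begins with A, the first bases of transcripts with a peak at the start were read from the RefSeq table of gene starts (GRCh38.p14). Shown are the first 30 bases, 5′ to 3′, of genes with wide start peaks in each class. They come from genes with a single RefSeq transcript, and their peaks began at base 19 or earlier. Wider start peaks on other genes are therefore not shown. The capital at the left end is the first base of the annotated transcript, and capitals inside the run mark a GGAC. Each line begins with the gene, and its position and strand are given after the lines.
PLA2G12A: GcacaggGGACggttgctggcccaggtgag
KDM5A: Gacagcacggtaacttccggaaaagtcctg
IGFBP4: Agccgctcagccccctgcccctcgccgccc
EFNB1: AtgcgagctGGACagcagtgggaggtttgt
CNTNAP1: Gaaaccggcgcgtgccaggagacagaggct
CELSR3: Gttggagcggcgggaggcggcagcagcgtc
VAT1L: Attgcacagccgagcatcccacattcaaca
RPF1: Caaaggagccaagaccatggcgaaagccgg
PPP1R14C: Agagcagccgggcggctgggcgcgcgcggc
PDCD7: Acttctcaaagcatctccgtcgtgaacatg
TMSB15A: Aacgctaacctggtccggagcgagtctggg
The first 4 carried a kept start peak. PLA2G12A (chr4:109730041-109730070, minus strand) had it at bases 3 to 304 without UV and 10 to 295 with UV, and KDM5A (chr12:389291-389320, minus strand), a histone H3 lysine 4 demethylase, at 1 to 296 and 1 to 170. IGFBP4 (chr17:40443450-40443479, plus strand), a binding protein of insulin-like growth factors, had it at 10 to 240 and 11 to 110, and EFNB1 (chrX:68829021-68829050, plus strand), an ephrin ligand, at 2 to 190 and 31 to 140. CNTNAP1 (chr17:42682531-42682560, plus strand), CELSR3 (chr3:48662857-48662886, minus strand) and VAT1L (chr16:77788564-77788593, plus strand) lost theirs, which ended at bases 300, 281 and 252. RPF1 (chr1:84479266-84479295, plus strand), PPP1R14C (chr6:150143044-150143073, plus strand), PDCD7 (chr15:65133779-65133808, minus strand) and TMSB15A (chrX:102516710-102516739, minus strand) gained one, ending at bases 230, 220, 193 and 170. In all 4 kept examples the peak was narrower with UV than without, but they were picked as wide without UV, which favours a narrower partner. Over all 6595 pairs of kept peaks that overlapped 1 to 1, 56.0% were narrower with UV.

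KO minus UV peaks that began at bases 1 to 50 numbered 1254, of which 541 were lost, and KO plus UV held 1018, of which 316 were gained. Only genes with a single RefSeq transcript could be assigned a first base. Among these, the first base was A for 59 of 97 kept start peaks without UV (60.8%, 50.9 to 69.9) and for 60 of 96 with UV (62.5%, 52.5 to 71.5). Lost start peaks gave 34 of 60 (56.7%, 44.1 to 68.4), and gained start peaks 19 of 57 (33.3%, 22.5 to 46.3). In all 27305 starts of the table the share was 44.3%, and among transcripts with peaks elsewhere but none at the start it was 41.9% without UV and 41.4% with UV. The intervals of both kept classes lay above the share of the table. Kept peaks overlap between the lists, so these classes are not independent. The interval of the lost start peaks included the share of the table only at its lower end, 44.1 against 44.3%. It lay above the 41.9% and overlapped the intervals of the kept classes. The interval of the gained start peaks included the share of the table. When only starts at bases 1 to 20 were taken, a choice made after the data were seen, the gained share was 39.5% (25.6 to 55.3) and the lost share 52.3%. GGAC, searched as these letters on the transcript strand in the first 50 bases, was present in 23.7% of the kept, 18.3% of the lost and 8 of 57 gained starts, against 18.8% of all starts. A match of letters describes the annotated sequence, and the first base used in these cells was not measured.

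KO minus UV held 4381 more peaks than KO plus UV, on 6968 genes against 5517. Of the KO minus UV peaks, 6516 were lost (47.0%, 46.2 to 47.9), and of the KO plus UV peaks 2139 were gained (22.6%, 21.8 to 23.4). The 7336 kept peaks without UV met 7332 kept peaks with UV. These shares depend on the sizes of the lists. Taking only the 9471 widest KO minus UV peaks matched the size of KO plus UV. Then 3878 were lost (40.9%) and 3787 KO plus UV peaks were gained, with 1624 lost and 1602 gained genes. Lists of equal size must give close counts of lost and gained peaks when most kept peaks have a single partner. The cut also took narrower peaks out of KO minus UV alone, so width changed along with list size. Lost genes numbered 2275, or 32.6% of those with a KO minus UV peak, and gained genes 824, or 14.9% of those with a KO plus UV peak, while 4693 were kept, 67.4% of the former. Peaks covered 2709 kb of transcript without UV and 1769 kb with UV, a ratio of 0.653, and the median peak width was 182 bases and 176 bases. The 1293 kb in common made up 47.7% of the bases without UV and 73.1% of those with UV.

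**Figure D1:**
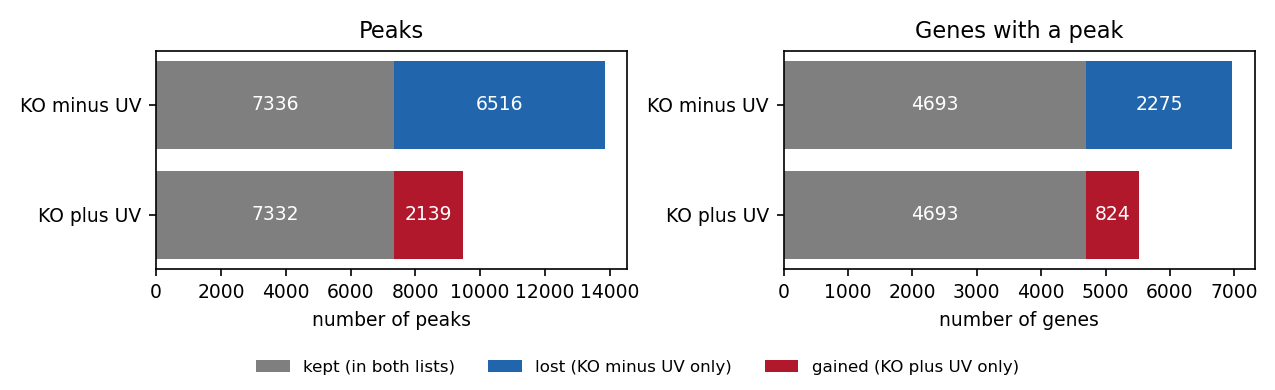
Bars give the number of peaks (left) and of genes with a peak (right) in the KO minus UV and KO plus UV lists, split into those kept, lost and gained. The lost segment, 6516 peaks and 2275 genes, exceeds the gained segment of 2139 peaks and 824 genes in both panels.

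Most lost peaks lay on transcripts without any peak in the other list. Of the 6516, 4071 (62.5%) stood on transcripts that had none in KO plus UV, and 2445 on transcripts that had a KO plus UV peak elsewhere, where the median distance to the nearest KO plus UV peak was 680 bases. Gained peaks were divided more evenly, 1002 (46.8%) on transcripts without a KO minus UV peak and 1137 on transcripts with one, at a median distance of 464 bases. Few peaks lay at the edge of the overlap rule. Only 59 KO minus UV peaks shared 1 to 10 bases with their partner, as in ARPP19, where bases 211 to 329 without UV met bases 1 to 211 with UV. Another 84 had a KO plus UV peak within 10 bases but shared no base with it, and in 24 of these no base lay between, as in AFF4, where 1732 to 1940 was followed by 1941 to 2243.

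Kept peaks lay at nearly the same bases in both lists. The 6595 pairs that overlapped 1 to 1 had a median start shift of 2 bases and a median end shift of 0, and a median distance of 10.5 bases between centres. With UV the partner was narrower in 3694 pairs (56.0%) and wider in 2523 (38.3%), with a median width change of -3 bases and quartiles of -30 and 10. The overlap was at least 50 percent of the shorter peak in 97.8% of the pairs, and 164 pairs were identical base for base. WIPF2, an actin regulator, had the largest narrowing, from 711 to 1372 without UV to 1011 to 1240 with UV. SNX21, a sorting nexin, had the largest widening, from 541 to 720 to 509 to 1040.

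Narrow peaks were lost and gained more often than wide ones. Any shared base makes a peak kept, so a wider peak meets this overlap rule more easily. How much of the difference by width comes from the rule was not tested. The lost share was 61.1% (59.4 to 62.7) of peaks from 100 to under 150 bases, 48.0% of those from 150 to under 200, 39.6% of those from 200 to under 300, and 340 of 1134 (27.4 to 32.7) of those at least 300 bases wide. The gained share was 36.8%, 21.3%, 13.1% and 6.76% in the same classes. Peaks of exactly 100 bases, the narrowest width in either list, made up 521 of the 6516 lost against 4.08% of the kept KO minus UV peaks, and 15.8% of the gained against 7.76% of the kept KO plus UV peaks. Along the transcript the shares ran in opposite directions over all transcripts. Peaks that began within the first 50 bases were lost in 43.1% of cases and gained in 31.0%, and those that began beyond base 6400 were lost in 63.8% (59.9 to 67.6) and gained in 12.6% (9.02 to 17.3). Within transcripts that had a peak in both lists the lost share was 20.1% at the start and 43.5% (38.6 to 48.5) beyond base 6400. The gained share there was 16.0% (13.7 to 18.7) at the start and 10.8% (7.47 to 15.3) beyond base 6400, with overlapping intervals. By order among the peaks of a transcript, 46.1% of first and 46.4% of last peaks were lost, and 52.2% of those between.

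**Figure D2:**
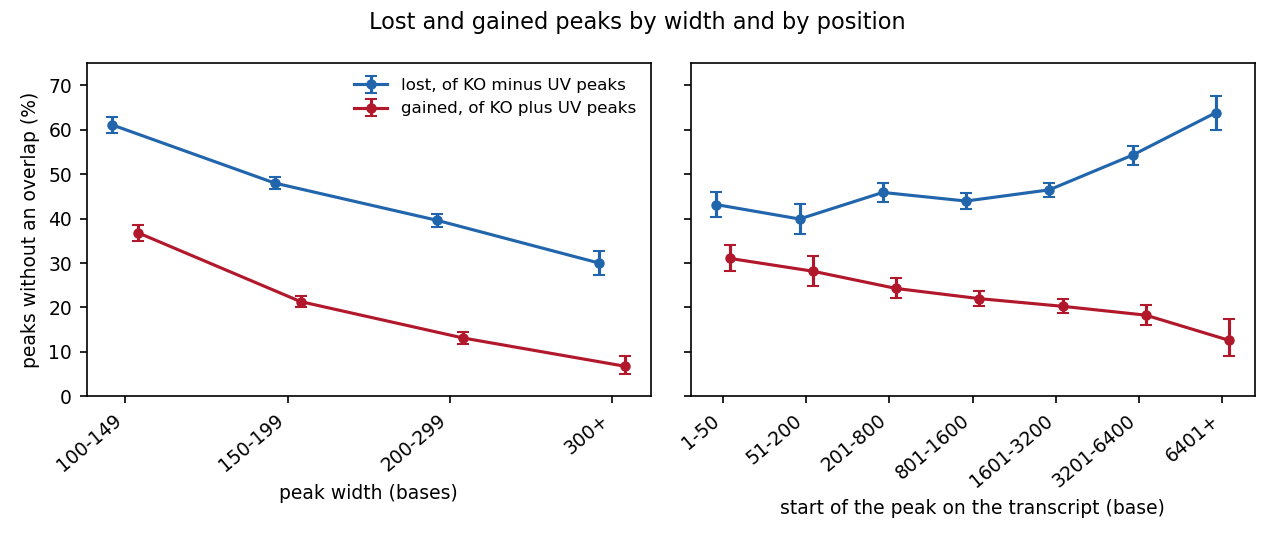
Points give the percentage of KO minus UV peaks lost (blue) and of KO plus UV peaks gained (red) by peak width in bases (left) and by the base of the transcript at which the peak starts (right), with 95% Wilson intervals. Both shares are lower for wider peaks, the lost share being 61.1% in the narrowest and 340 of 1134 peaks in the widest class, whereas beyond base 6400 the lost share is 63.8% and the gained share 12.6%.

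Genes kept in both lists most often had equal numbers of peaks, but many of these had a single peak. Of the 4693, 2626 (56.0%) had equal numbers, 1372 (29.2%) fewer with UV and 695 (14.8%) more. Of the equal ones 1571 had 1 peak in each list, and a kept gene with 1 KO minus UV peak cannot have fewer. Of kept genes with 3 KO minus UV peaks, 261 had 3 with UV, 245 had 2, 153 had 1, 60 had 4 and 6 had 5. Every KO minus UV peak was overlapped in 3060 of all kept genes and none in 151. Among the lost genes 1324 (58.2%) had had a single peak and 416 at least 3, while 683 of the gained (82.9%) had a single peak and 18 at least 3. Genes with 1 KO minus UV peak were lost in 40.2% of cases and those with 3 in 22.4%, but the share did not go on falling. It was 26.2% of 206 genes with 5 peaks, 30 of 120 with 6 or 7, and 12 of 38 genes (31.6%, 19.1 to 47.5) with at least 8. None of the 66 genes with 5 KO plus UV peaks was gained, nor any of the 28 with 6 or 7. The same held for the 5 with at least 8, while 14.9% of all genes with a KO plus UV peak were gained. Of the 364 genes with at least 5 KO minus UV peaks, 96 had 0 with UV, 45 had 1, and 36 had at least as many.

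**Figure D3:**
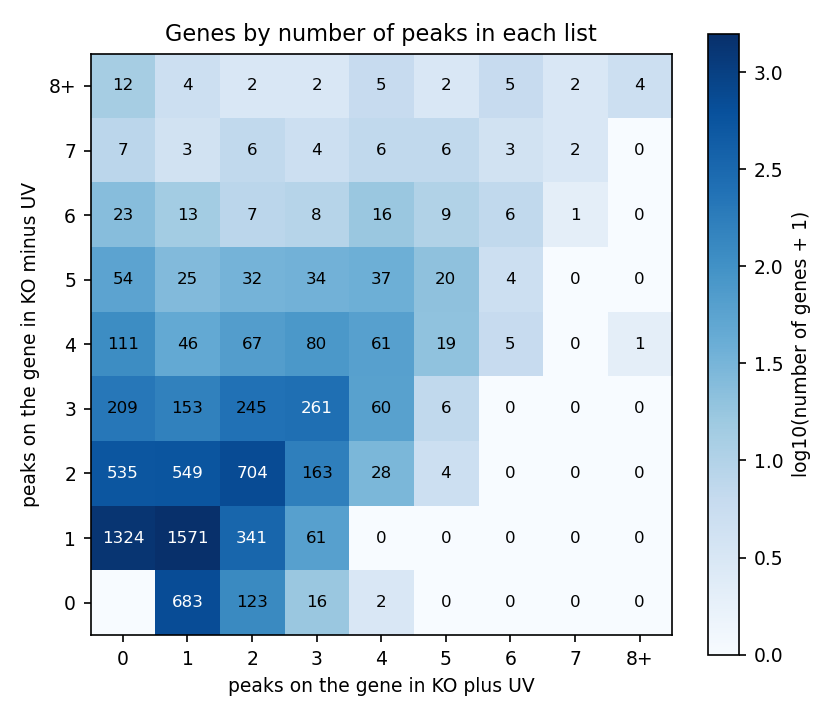
Each cell gives the number of genes with the stated number of peaks in KO plus UV (horizontal) and KO minus UV (vertical), coloured by log10 of the number plus 1. The left column holds the lost genes, including 12 with at least 8 peaks, and the bottom row the gained genes, none with more than 4.

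The lost genes named here are those with the greatest total peak length, a choice that favours genes with many peaks. Of all lost genes 58.2% had had a single peak. PKD1, the gene of polycystin-1 (chromosome 16, 2088708 to 2135898, GRCh38), had 7 peaks over 2175 bases, the widest at 6342 to 6858. RAPH1, a regulator of lamellipodia (chromosome 2, 203433682 to 203535301), had 6 over 2125 bases, among them the widest lost peak of the list, at 2353 to 3247. NIPBL, which loads cohesin onto chromatin (chromosome 5, 36876769 to 37066413), had 12 peaks over 2061 bases, from base 80 to base 9480. SMC1A, a subunit of cohesin itself, had 7 over 1650 bases. ASH1L, a histone H3 lysine 36 methyltransferase (chromosome 1, 155335268 to 155563202), had 10 peaks over 1958 bases. TTC28 had 10 peaks, BIRC6, an inhibitor of apoptosis with ubiquitin ligase activity, had 9, and USF3 had 8. TNRC6B, a partner of Argonaute in silencing by microRNAs, and the ubiquitin ligase gene HERC1 had 7 each, and ABL2, a tyrosine kinase, had 6. None of these genes had a peak with UV. PKD1 has near-identical pseudogene copies, so its reads may be divided among them.

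Gained genes carried fewer peaks over fewer bases. ZNF697 had the longest, 2 peaks over 757 bases, at 147 to 723 and 1941 to 2120. NTN4, a netrin of basement membranes (chromosome 12, 95657807 to 95791155), had 3 over 707 bases, the first at bases 1 to 200. NCBP1, the large subunit of the nuclear cap-binding complex (chromosome 9, 97633821 to 97673748), had 4, at 116 to 344, 345 to 523, 1181 to 1286 and 2385 to 2570. SLC25A24, SLC37A3, RFTN1 and SPEN, a transcriptional corepressor, had 3 peaks each over 560 to 637 bases. SNAP29, a membrane fusion protein, POGLUT3, SUPT7L and SRBD1 had 2 each. All of these lacked a peak without UV.

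In the genes with most peak length in both lists the pattern ranged from full retention to FAT1, where 6 of 13 KO minus UV peaks were overlapped. EP300, a histone acetyltransferase (chromosome 22, 41092592 to 41180077), carried 8 peaks in both lists, all overlapping, over 2478 bases without UV and 2206 with UV. Its closest paralogue CREBBP (chromosome 16, 3725054 to 3880713), named for its fall in peaks and not for its peak length, had 7 and 1. Of its peaks only 7437 to 7537 had a partner, at 7481 to 7580, while the adjoining peak was lost. SRCAP, the ATPase of a remodeller that deposits H2A.Z, kept all 7 of its peaks. KMT2D, which methylates histone H3 at enhancers (chromosome 12, 49018978 to 49060794), went from 14 to 10, its lost peaks starting at bases 2961, 7085, 8611 and 11381. FAT1, a giant cadherin, went from 13 to 7 and TET3, an oxidase of 5-methylcytosine in DNA, from 10 to 6, with 6 and 5 of their KO minus UV peaks overlapped. NOTCH2, a Notch receptor with near-identical partial copies in the genome, had 8 and 9, MED1, a Mediator subunit, 8 and 6, and ARHGEF17 6 and 5. Of their KO minus UV peaks 6, 5 and 5 were overlapped. Of the 268 kept genes with at least 5 KO minus UV peaks, 29 had every one of them overlapped.

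Among kept genes, the largest differences toward fewer peaks with UV were those of CELSR3, an atypical cadherin, from 9 to 1, ANKRD17, HIPK2, a kinase that acts on p53, and DYNC1H1, the heavy chain of dynein, each from 8 to 1, and CREBBP from 7 to 1. ZKSCAN1 went from 9 to 2, and PTPN14, a phosphatase that restrains YAP, from 8 to 2. In CELSR3 the peak that stayed was the last, at 9525 to 10067 without UV and 9841 to 10040 with UV, and in ANKRD17 it was also the last, at 6465 to 6740 and 6464 to 6730. In the other direction the differences were smaller. PDPR went from 4 to 8, although it has near-identical copies in the genome and several of its KO plus UV peaks share a partner. PDS5A, a regulator of cohesin (chromosome 4, 39822863 to 39977911), went from 2 to 5, with new peaks at 331 to 610, 1671 to 1877 and 2621 to 2807 and its adjoining peaks at 4153 to 4572 and 4573 to 4780 kept. ADGRA2, ADNP2 and STK38 also went from 2 to 5, UPF1, the helicase of nonsense-mediated decay, and PLXNB2 from 4 to 6, and CDK12, an elongation kinase, from 3 to 5. In ADNP2, 4 of the 5 KO plus UV peaks overlapped its 2 KO minus UV peaks, and the bases covered were 727 without UV and 774 with UV. In CDK12 the bases covered were 1015 without UV and 968 with UV, so there the larger number came with no more covered sequence.

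**Figure D4:**
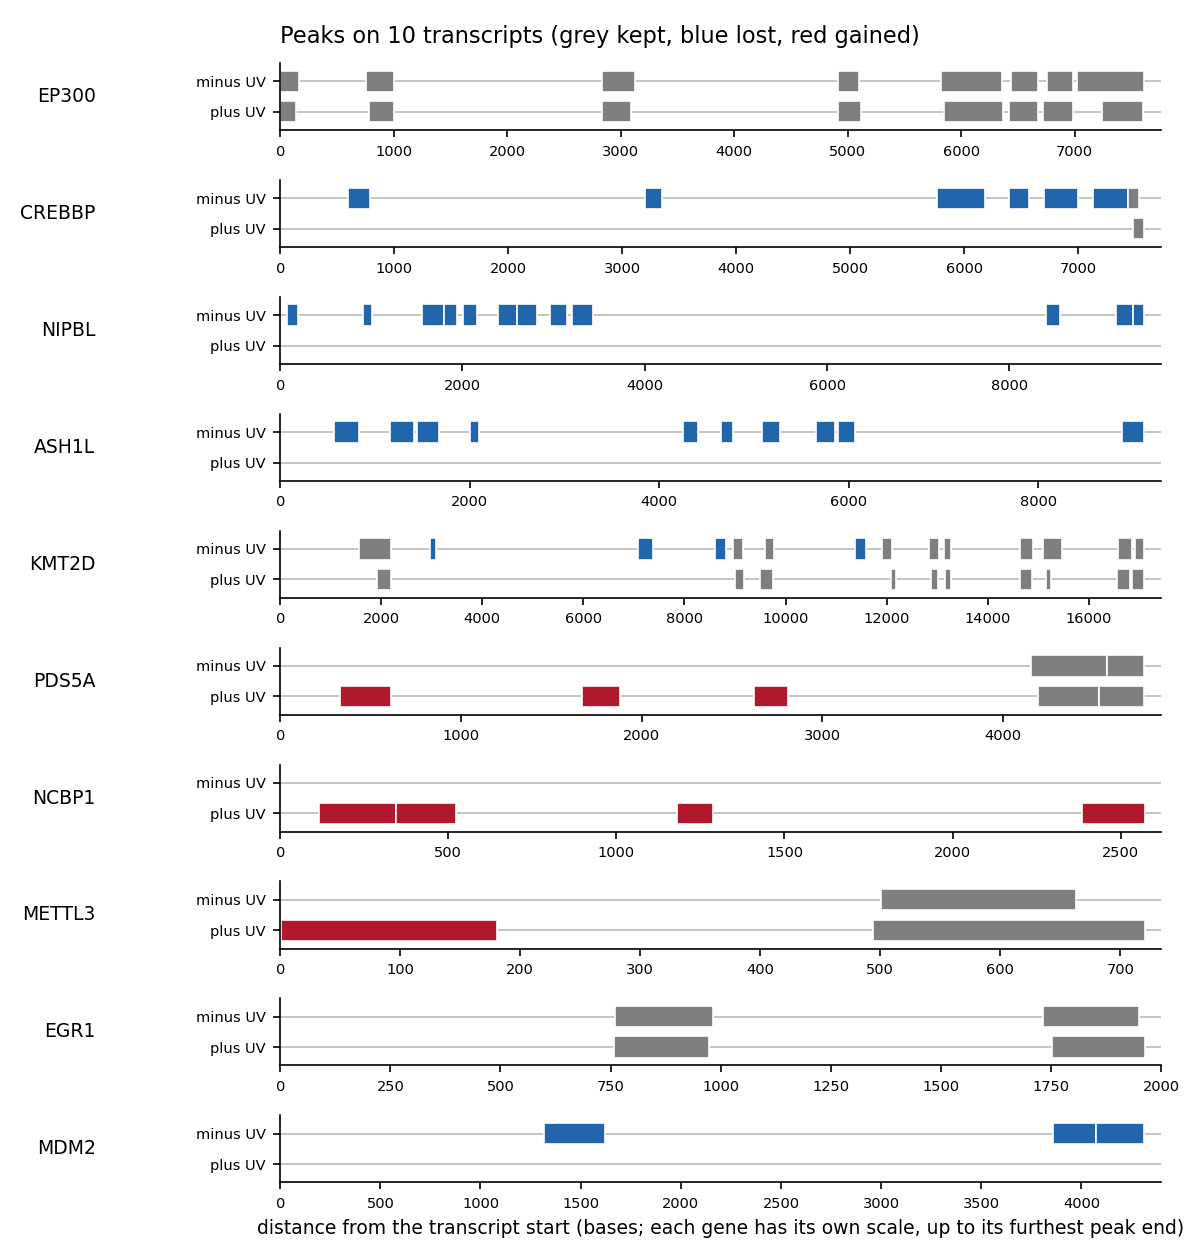
Peaks on 10 transcripts, drawn by distance in bases from the transcript start, in KO minus UV (upper track of each gene) and KO plus UV (lower track), grey where kept, blue where lost and red where gained. EP300 keeps all 8 peaks and CREBBP 1 of 7, NIPBL and ASH1L have none with UV, and PDS5A and NCBP1 hold gained peaks.

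Single wide peaks also came and went on transcripts that kept another. DCHS1 lost bases 7949 to 8549, AAK1 lost 1447 to 2029, ERRFI1, an inhibitor of the EGF receptor, lost 1019 to 1570, COL5A1 lost 5801 to 6272, KATNIP lost 1841 to 2310 and MGA, a partner of MAX, lost 8225 to 8686. With UV, CSNK1G3, a casein kinase, gained 125 to 626 beside its kept peak at 671 to 841. FGFR1, a receptor of fibroblast growth factors, gained 222 to 714, SDAD1 gained 1809 to 2220, FUT4 gained 1101 to 1500, CEP250 gained 6015 to 6400 and DCAF10 gained 50 to 410. None of these 12 peaks was under 361 bases wide.

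Turning to the writers themselves, the transcript of METTL3 carried a peak in both lists, at 501 to 662 without UV and 494 to 720 with UV, and a gained one at 1 to 180. A peak list does not give the level of a transcript, so it checks neither the knockout nor the protein. METTL14, at 1247 to 1452, and RBM15, at 1691 to 1840, lost their only peak, and VIRMA lost all 5, at 760 to 937, 1331 to 1430, 1545 to 1860, 2267 to 2433 and 5451 to 5560. RBM15B was gained, at 1221 to 1500, 1521 to 1620 and 2701 to 2825. WTAP kept its peak (1114 to 1456 and 1151 to 1457), as did PCIF1 (2320 to 2604 and 2336 to 2600), CBLL1 and MAT2A, which makes the methyl donor, kept both of theirs, and METTL16 kept 1 of 3. No peak was listed for ZC3H13, METTL5, TRMT112 or ZCCHC4 in either list. In all, 3 of 9 members with a KO minus UV peak were lost (33.3%), against 32.6% of all genes. Of 7 members with a KO plus UV peak 1 was gained (14.3%), against 14.9% of all genes. Of the 17 KO minus UV peaks of this list 9 were lost (52.9%), against 47.0% of all peaks.

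Among readers and demethylases 4 of 12 were lost: the readers YTHDF3, with 2 peaks, YTHDC2 and FMR1, with 3 each, and the demethylase ALKBH5, with 2. FTO went from 2 to 1. The cytoplasmic reader YTHDF1 kept both of its peaks, YTHDF2 kept bases 1838 to 2050 (1838 to 2055 with UV) and lost the adjoining 1667 to 1837, and the nuclear reader YTHDC1 kept both and gained 31 to 130. PRRC2A kept all 4 peaks on a transcript listed under a copy number, IGF2BP2 went from 3 to 1, and HNRNPC and HNRNPA2B1 from 1 to 2 and from 2 to 1. No member was gained, and 15 of 28 peaks were lost. The lost shares, 33.3% of genes and 53.6% of peaks, compare with 32.6% and 47.0% over all genes and peaks, and 14.9% of all genes with a KO plus UV peak were gained.

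Because UVC forms pyrimidine dimers, genes of the responses to such damage were examined by role. Of 20 nucleotide excision repair genes with a KO minus UV peak, 6 were lost, and 13 of their 32 peaks were lost (40.6%). The gene interval, 14.5 to 51.9, includes the 32.6% of all genes, and 47.0% of all peaks were lost. Of the 14 with a KO plus UV peak, 0 were gained (0 to 21.5), against 14.9% of all genes. The damage sensors XPC and DDB2, both also targets of p53, kept every peak and went from 2 to 3, XPC with a new one at 21 to 120 and DDB2 at 1609 to 1713. The lost genes were ERCC6, with 3 peaks, UVSSA, with 2, and ERCC8, with 1, which act in transcription-coupled repair, the helicase gene ERCC2, the nuclease gene ERCC4 and CUL4B. XAB2, another factor of transcription-coupled repair, kept both of its peaks. In translesion synthesis, 2 of 10 genes were lost, POLI, a damage-tolerant polymerase, and USP1, which deubiquitinates PCNA, and 5 of 15 peaks. The protease gene SPRTN counts as kept, but its peak at 1021 to 1156 was lost and another at 2771 to 2930 gained.

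Base excision repair was the repair list with most gained genes. It did not have most gained peaks, with 6 against 9 for double-strand break and Fanconi anaemia genes. Of 10 genes with a KO minus UV peak, APEX1, APTX and MUTYH were lost, each with 1 peak, while 5 of 12 with a KO plus UV peak were gained (41.7%, 19.3 to 68.0), against 14.9% of all genes. Among these were POLB, the gap-filling polymerase, at 54 to 320, the glycosylases MBD4, at 783 to 971, and UNG, at 1071 to 1180, and PARP2 at 1 to 100. Each gain rested on 1 peak, and that of PARP2 had the narrowest width in the lists. Of the 17 KO minus UV peaks of this list 4 were lost (23.5%), against 47.0% of all peaks, and the 3 lost genes compare with 32.6% of all genes (interval for the list 10.8 to 60.3). Double-strand break and Fanconi anaemia genes had 7 of 21 lost, among them BRCA1, its partner BARD1 and FANCC, and 27 of 48 peaks lost. For the checkpoint, ATR, the kinase that responds to UV, its partner ATRIP, TIPIN, ETAA1 and RNF168 were lost, 5 of 15, and MDC1 was gained with 3 peaks on a copy-numbered transcript. CLSPN, a mediator between ATR and CHEK1, went from 6 peaks to 1, and the checkpoint list lost 20 of 33 peaks. Both of these lists lost 33.3% of their genes, near the 32.6% of all genes, and 56.3% and 60.6% of their peaks, against 47.0% of all peaks.

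Targets of p53 and immediate early genes differed in their counts. Of 18 p53 targets 8 were lost (44.4%, 24.6 to 66.3), including MDM2, the ligase of p53, with peaks at 1317 to 1619, 3860 to 4069 and 4070 to 4313, the inhibitor of cyclin-dependent kinases CDKN1A, at 1491 to 1630, GADD45A, TIGAR and PHLDA3. SESN1 was gained at 345 to 501, and PLK2 went from 2 to 3. The gene interval of the p53 targets includes the 32.6% of all genes. Of their 35 KO minus UV peaks 14 were lost, a share below the 47.0% of all peaks. Of 16 immediate early genes with a KO minus UV peak none was lost (0 to 19.4), and none of their 27 peaks. The transcription factor EGR1 had peaks at 761 to 981 and 1731 to 1949 without UV and at 757 to 972 and 1751 to 1961 with UV, and MYC at 1751 to 1945 and 1731 to 1963. BTG2, an antiproliferative factor and also a p53 target, kept all 5 of its peaks, CCN1 and CCN2 kept 2 each, and the nuclear receptor NR4A1 kept 3. KLF6 carried adjoining peaks that met at bases 672 and 673 in both lists. JUN is listed with 2 peaks without UV, at 2041 to 2170 and 2281 to 2380, and with 1 that overlaps both, at 1851 to 2338, with UV. DUSP1, a phosphatase of MAP kinases, went from 1 to 3, although more than 1 of its KO plus UV peaks overlapped its KO minus UV peak. ATF3, at 1051 to 1150, and KLF10, at 1030 to 1170 and 1791 to 1930, were gained. No peak was listed for FOS, FOSB, FOSL1, EGR2, EGR3, KLF4 or ZFP36 in either list. These genes are short, with a median genomic span of 3.95 kb among those with a KO minus UV peak against 34.4 kb for all genes, and the part of length in the count was not tested. Their peaks had a median width of 195 bases, against 182 for all. The stress MAP kinase list lost DUSP10, MAP2K6 and MAP3K2 of 17 genes and 9 of 35 peaks, and MAP3K4 kept all 5 of its peaks.

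Chromatin genes carried many peaks per gene, a mean of 3.70 for histone methyltransferases and demethylases against 1.97 over all genes with a KO minus UV peak. Histone methyltransferases and demethylases lost 9 of 30 genes and 57 of 111 peaks: ASH1L, KMT2A with 8 peaks, KDM2B with 5, and KMT2E, SETD2, EZH2 and PRDM2 with 2 each among them. KDM5A and DOT1L had 4 peaks in both lists, of which 3 and 4 overlapped, and SETD5 had 5 and 6. Chromatin remodellers lost 10 of 25 genes and 53 of 91 peaks, CHD6 with 6, ATRX, CHD3 and CHD9 with 4 each among them, while SMARCC2 was gained. Acetyltransferases and deacetylases lost only KAT6B and SIRT1 of 17, yet 22 of 53 peaks, 6 of them on CREBBP. Of the ZNF genes, which encode mostly zinc-finger transcription factors, 85 of 167 were lost (50.9%, 43.4 to 58.4), and 198 of 316 peaks (62.7%, against 47.0% of all peaks). Of the 97 with a KO plus UV peak, 15 were gained (15.5%), near the 14.9% of all genes. ZNF275, ZNF704, ZNF407 and ZNF445 had 5 peaks each and none with UV. Across the 27 lists with at least 8 genes in KO minus UV, the lost share of genes ran from 0 for immediate early genes to that of the ZNF genes, and the intervals of these lists lay wholly below and wholly above the 32.6% of all genes, while those of the others included it.

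**Figure D5:**
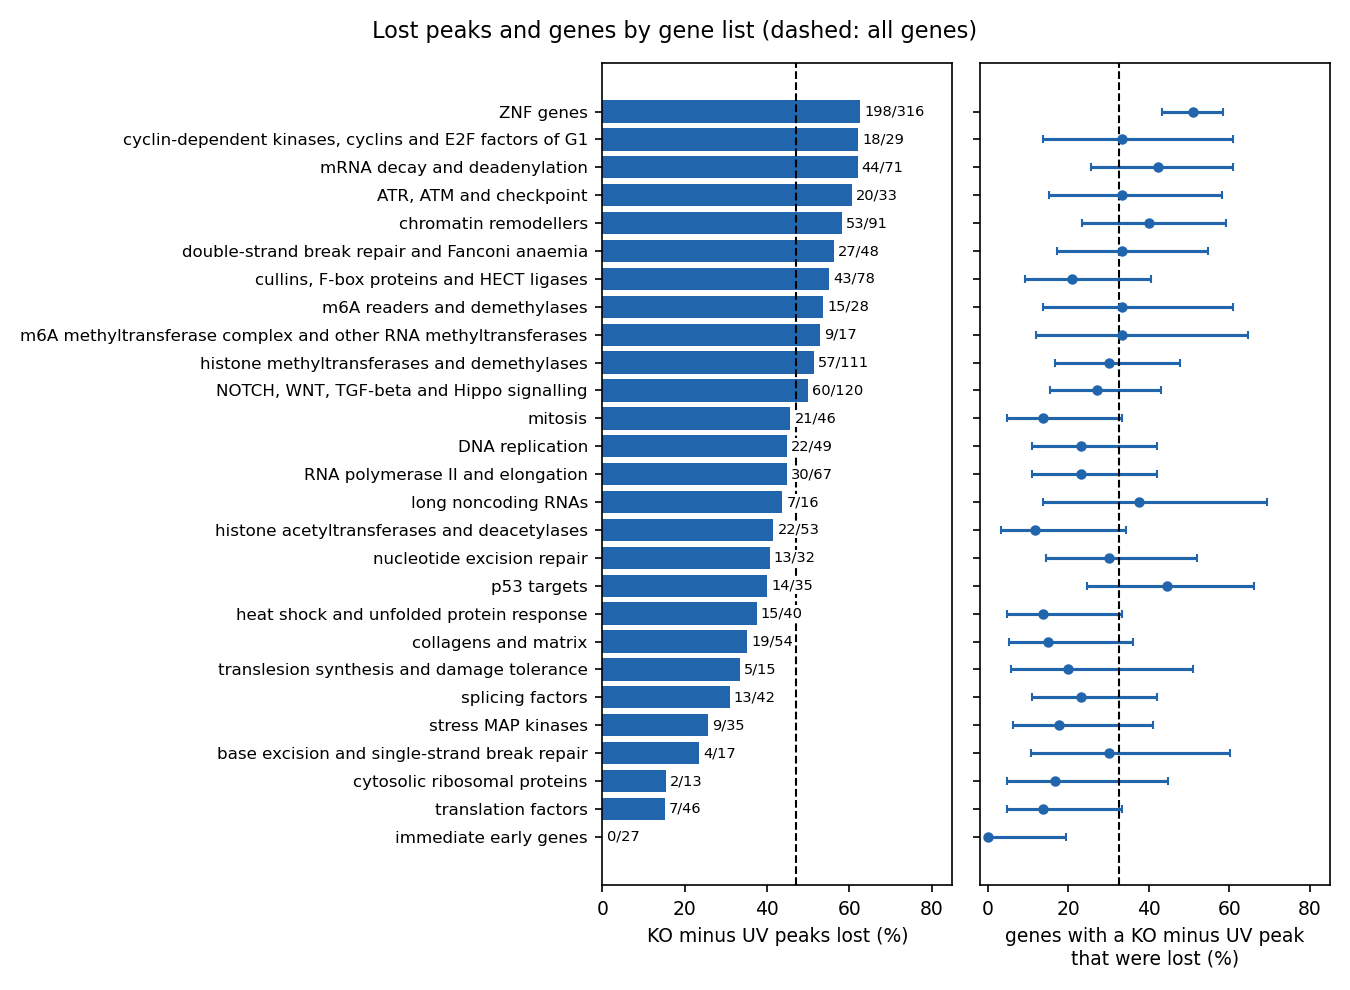
Bars (left) give the percentage of KO minus UV peaks lost in each gene list, with lost and total peaks beside them, and points (right) the percentage of its genes lost with 95% Wilson intervals, for lists with at least 8 genes. Dashed lines mark all genes, 47.0% of peaks and 32.6% of genes. ZNF genes stand at the top with 198 of 316 peaks lost and immediate early genes at the bottom with 0 of 27.

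Among genes of transcription and RNA handling, RNA polymerase II and elongation factors lost 6 of 26 genes, CTR9, CDC73 and PAF1 of the PAF complex and CCNT2, a cyclin of the elongation kinase CDK9, among them. LEO1, of the same complex, and TCEA1 were gained. POLR2A, the largest subunit, had 2 peaks in both lists, over 1092 bases without UV and 1047 with UV, and 1 of the 2 without UV was overlapped. AFF1 and AFF4 went from 8 to 3 and from 8 to 4. Splicing factors lost 6 of 26 genes and 13 of 42 peaks, and RBM39 was gained. In mRNA decay and deadenylation 11 of 26 genes and 44 of 71 peaks were lost, SMG1 with 8 peaks, TNRC6B with 7, and UPF2 and DCP1A with 4 each among them. SMG1 has near-identical pseudogene copies. PAN2 and TOB2 went from 1 to 3, and CNOT10 and CNOT11 were gained. Over all genes, 32.6% of genes and 47.0% of peaks were lost, and the gene intervals of the polymerase, splicing and decay lists include the former. Of 22 translation factors EIF4B, EIF3C and EIF4A1 were lost (4.75 to 33.3, which includes 32.6%), and 7 of 46 peaks. EIF3A kept all 6 of its peaks, EIF2S3 went from 1 to 3, and PABPC1, the poly(A)-binding protein, gained 1651 to 1892. EIF3C has a near-identical neighbour. Cytosolic ribosomal protein genes lost 2 of 12 genes, RPL7 among them, and 2 of 13 peaks, and had 10 peaks with UV. Heat shock and unfolded protein response genes lost HSF2, ERN1 and XBP1 of 22, with 15 of 40 peaks, in a list that holds the near-identical genes HSPA1A and HSPA1B.

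For the cell cycle, G1 kinases, cyclins and E2F factors lost 18 of 29 peaks. CDK6, a partner of D-type cyclins, lost all 6, CDKN1B, an inhibitor of these kinases, lost 541 to 760 and 901 to 1000, RBL1 lost 3 and E2F3 lost 2. CCND1, cyclin D1, kept only the peak at the start, 21 to 120 without UV and 1 to 100 with UV, of 4. RB1 and CCND3 were gained with 1 peak each. Mitotic genes lost BUB3, CDK1 and KIF23 of 22 and gained KIF18A and MAD2L1, and ASPM went from 6 to 1. Replication genes lost 6 of 26, POLE with 5 peaks among them, and gained GINS2 and RFC3. Genes of cullin, F-box and HECT ubiquitin ligases lost HERC1, FBXW7, ITCH, FBXO33 and SMURF2 of 24 and 43 of 78 peaks, while FBXW11 was gained. HUWE1 had 7 peaks in both lists, of which 5 overlapped. In NOTCH, WNT, TGF-beta and Hippo signalling 10 of 37 genes and 60 of 120 peaks were lost, ZNRF3 with 5, and APC and MAML1 with 4 each among them. TEAD1 had 5 peaks in both lists, LRP6 went from 8 to 3, and AXIN2 was gained with 2. The gene intervals of these 5 lists all include the 32.6% of all genes, and their lost shares of peaks lay between 44.9% and 62.1%, around the 47.0% of all peaks.

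Of the osteoblast lineage markers, 5 of 14 had a peak without UV and 3 with UV. RUNX2, the lineage's master transcription factor, with 3 peaks, and MSX2 were lost, and SPP1, SPARC and COL1A1 were kept, the last at 4411 to 4621 and 4411 to 4627. Collagen and matrix genes lost COL6A2, FBN1 and LAMA1 of 20, and the interval, 5.24 to 36.0, includes the 32.6% of all genes. None of 13 blood markers had a peak in either list, 3 of 11 epithelial markers (KRT8, MUC1 and CLDN4) and 3 of 12 neuronal markers (SLC17A7, NEFL and OLIG2) did without UV, and KRT8 and MUC1 were lost. Long noncoding RNAs lost 3 of 8: MALAT1, with peaks at 1211 to 1352, 1801 to 2018 and 2630 to 2951, SNHG1 and SNHG5. NEAT1 kept all 3 of its peaks, at 14 to 140, 1591 to 1835 and 2011 to 2195 without UV, and NORAD kept 2 of 3.

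Over all genes, the lost share differed by genomic span and gene type. It was 31.1% (28.8 to 33.6) in the quintile of genes with the shortest span and 42.2% (39.6 to 44.8) in that with the longest, at least 99.3 kb, while the gained share was 17.8% and 13.8% in the corresponding quintiles of genes with a KO plus UV peak. Among genes with a single KO minus UV peak the lost share went from 34.7% to 53.9%. Long noncoding RNA genes were lost in 73 of 119 cases (61.3%, 52.4 to 69.6) and transcribed pseudogenes in 45 of 81 (55.6%, 44.7 to 65.9), against 31.9% of protein-coding genes. By chromosome the share ran from 26.4% (22.1 to 31.3) on chromosome 16 to 47.0% (37.5 to 56.7) on chromosome 13.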

How the data were processed

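RNA bound by an m6A antibody was mapped in METTL3 KO U2OS cells. Reads were aligned with TopHat2 2.0.14 to hg38, as the submitters' processing notes state. Not given in the sources used here are the caller of the peaks, its threshold and how inputs were used. The deposited lists hold no measured signal (unit other): each entry is a RefSeq transcript with the first and last base of a peak, counted from 1. Genes were named through a RefSeq table (GRCh38.p14). 56 of 7026 KO minus UV and 45 of 5564 KO plus UV transcripts were not matched and left out of gene counts, and 78 and 74 carried a copy number. Overlaps, medians and Wilson intervals were computed in Python 3.11.15 with pandas 2.3.3 and scipy 1.17.1, and the script for overlaps was tested on simulated data. Peaks on 1 transcript depend on each other, and PCR copies could not be separated from distinct molecules, so intervals cover counting error only.

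The genes named were those ranked highest by total peak length, uncharacterised genes skipped: the 12 longest lost and 12 longest gained, the 8 longest kept, the 8 largest falls and 8 largest rises, the 6 widest lost and 6 widest gained peaks on transcripts in both lists, all m6A genes, up to 5 lost, 5 gained and 5 kept members of each of the other lists, and members a count of 5 or fewer refers to. A few list members outside this rule (AFF1, CLSPN, ASPM, HUWE1, LRP6 and others cited by peak number) were chosen after their values were seen. The members and the 31 gene lists were chosen with earlier results of these data known. Alternatives covered the overlap rule, merging, width, list size and the unit of counting. Some genes that the rule names are not reported here.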

Additional observations from a re-analysis of the deposited data

How the results depend on the processing

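Lost and gained peak counts stayed within 1.5 times their values when the overlap was set at 50 percent of the shorter peak, at 100 bases or at any peak within 100 bases, when neighbours were merged, when peaks under 150 bases or copy-numbered transcripts were left out, and gene counts did so with transcripts in place of genes. Other settings moved them. With only the widest KO minus UV peaks, as many as KO plus UV held, 3878 peaks were lost and 3787 gained, and 1624 genes were lost and 1602 gained. Equal list sizes by themselves bring the lost and gained peak counts close together. On transcripts present in both lists, 2445 peaks were lost and 1137 gained, the ratio of bases was 0.826, and the lost share of transcripts with at least 5 peaks exceeded that of transcripts with 1 by 37.1 points in place of 14.5, since a transcript with 1 peak must there have another to meet. With at least 2 peaks required, 951 genes were lost, 141 gained and 1927 kept. The difference in lost share between the longest and shortest quintile of genes was 19.2 points among genes with 1 peak, 14.3 with 2, 10.5 with 3 or 4 and 23.3 with at least 5, of which the shortest quintile held 12. It was wider than over all genes in each class but that with 3 or 4. The cause was not tested. No paired analysis was possible because each condition has 1 list for all replicates, although the labels of both share replicates 1 and 3. For the same reason no replicate could be left out.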
